A study of Mus musculus with 6 samples.

Results

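Matrix metalloproteinases (MMPs) and the tissue inhibitors of metalloproteinases (TIMPs) were followed as 10 genes in mouse liver: the inhibitors *Timp1*, *Timp2* and *Timp3*, the secreted proteases *Mmp2*, *Mmp9*, *Mmp12*, *Mmp13* and *Mmp19*, and the membrane-type proteases *Mmp14* and *Mmp15*. The genes were taken by name as matrix proteases and their inhibitors, a choice made with earlier results of these data known. All 10 were among the 25403 genes listed, each with 1 row, and all 10 were among the 14496 genes with enough counts to be tested. Poly(A) RNA of whole livers was sequenced in 3 samples labelled wild-type C57BL6/J (WT) and 3 labelled Themis KO (KO), a deletion in the whole body. Every mouse had been fed a MASH diet (AMYLIN liver NASH diet), in which fat gave 40% and fructose 20% of the energy and cholesterol made up 2%, for 3 months from an age of 10 to 12 weeks. There was no group on another diet, so each comparison below is between genotype labels among livers that all had the diet. The comparison asks how loss of THEMIS, a signalling adaptor best known from T cells, bears on the response of the liver to this diet.

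MMPs are zinc-dependent enzymes that cut collagens, elastin, laminins and other proteins outside the cell. Most are made as inactive proenzymes, which plasmin, furin-type proteases or other MMPs activate, and TIMPs block the active site by binding to it. In injured liver, hepatic stellate cells (HSCs) and fibroblasts are known to make *Timp1*, *Timp2*, *Mmp2* and *Mmp14*, macrophages *Mmp12* and *Mmp13*, and neutrophils carry *Mmp9* protein. Both matrix build-up and its later removal involve these enzymes, and the transcript alone does not give enzyme activity.

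Depth ranged from 20679642 to 25649767 counts on genes a liver. *Themis* itself did not separate the labels: the livers labelled WT had 8.07, 25.6 and 12.0 CPM (counts relative to the TMM-scaled library size), the livers labelled KO had 8.62, 7.74 and 9.96 CPM, and the first WT liver lay within the KO range. Which exons the KO allele lacks is not given in the sources used here, so counts over the whole gene may not be a check of it. A second feature split the livers otherwise than the labels did. In WT1 and WT2 nearly all counts of a pair of near-identical sequences fell on the pseudogene *Gm28438* (96.6% and 96.8% of its sum with mitochondrial *mt-Nd3*), while in WT3 and the 3 KO livers 2.20% to 3.26% did. This split, called the mitochondrial type below, is shared by WT3 with all KO livers and cannot be told apart from genotype for the other 2 WT livers. Directions below are therefore between livers as labelled.

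Of the 10 genes, *Timp1*, *Mmp2*, *Mmp13* and *Mmp14* were higher in the livers labelled KO at an adjusted p under 0.05 (edgeR, Benjamini-Hochberg adjustment over all genes tested), and none was lower. Among all genes tested, 4.97% were called higher and 4.14% lower. The fitted log2 fold change, KO minus WT, was above 0 for 9 of the 10 genes, against 51.0% of all genes, and its median over the 10 was 0.69, against 0.01 over all genes. In 7 genes every KO liver lay above every WT liver, an order that 17.7% of all genes showed. In *Timp3*, *Mmp12* and *Mmp19* the groups overlapped. At an unadjusted p under 0.05, 8 of the 10 were higher, against 16.8% of all genes. With a fold of at least 2 as a second condition, 2 of the 10 were called higher, against 1.86% of all genes. With an additional term for the mitochondrial type 0 of the 10 were called higher, and 0 among the 4 livers of one type, where 0% of all genes were called higher. Both fits compare WT3 alone with the 3 KO livers, so few genes can pass in them, and the missed calls do not show that the genes were level. All 10 fold changes had the same sign in these fits as with 6 livers. With single livers left out, 0 of the 10 were called higher without WT1, WT2, KO1 or KO2, where 0.0809%, 0.128%, 0.0543% and 0.183% of all genes were, 3 without WT3 (3.24% of all genes) and 7 without KO3 (15% of all genes).

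**Figure D1:**
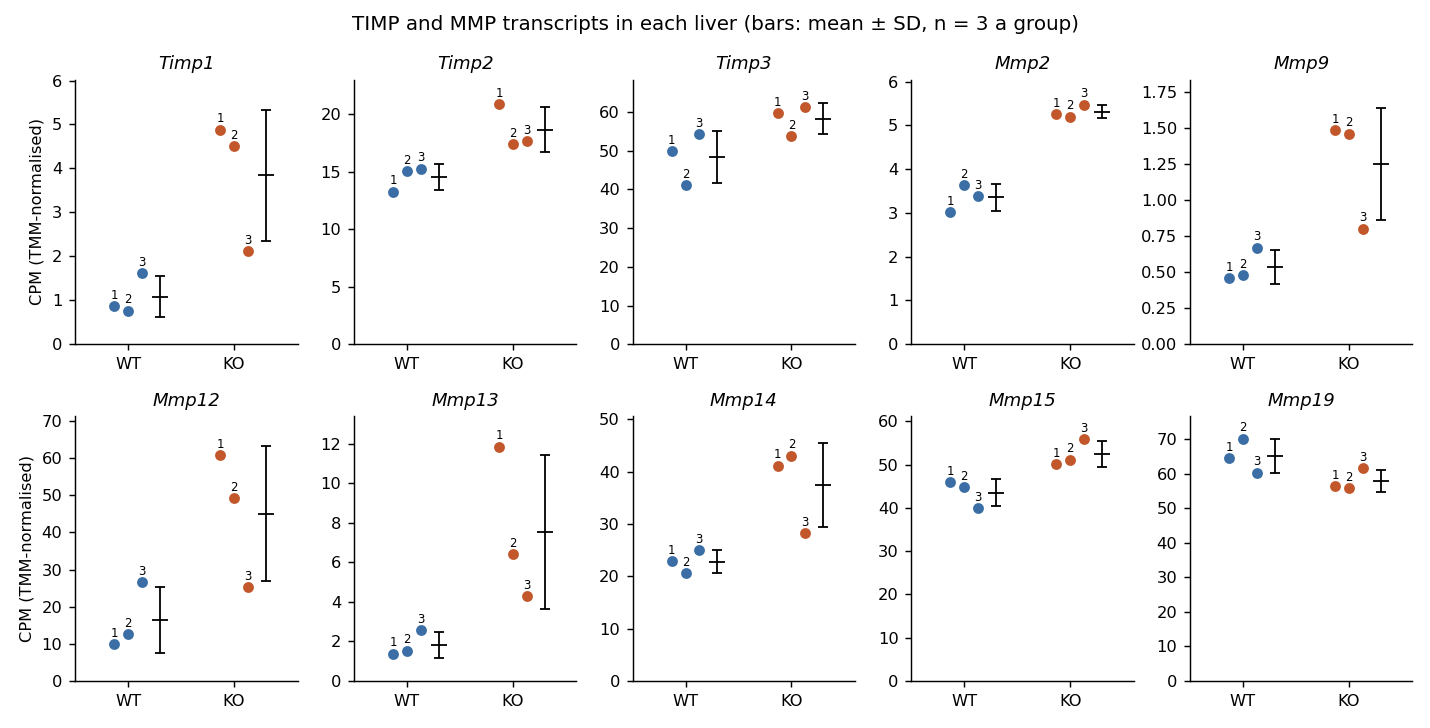
CPM after TMM scaling (y axis, from 0) of the 10 genes in each liver, with WT livers in blue, KO livers in orange, the replicate number above each point, and black bars for the mean ± SD of 3 livers. In *Mmp12* the WT3 point (26.7 CPM) lies above the KO3 point (25.2 CPM), and in *Mmp2* the 3 KO points lie between 5.20 and 5.47 CPM, above all WT points.

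The inhibitors come first. *Timp1* (chromosome X, 20870166 to 20874735, plus strand, GRCm38) encodes a secreted inhibitor that is widely used as a transcript of activated stellate cells. It was measured at 0.871, 0.767 and 1.62 CPM in the WT livers and 4.88, 4.51 and 2.12 CPM in the KO livers. KO3 was the lowest KO liver and WT3 the highest WT liver, 1.31-fold apart, and the groups did not overlap. The log2 fold change was 1.80 ± 0.40 (SE), which is 3.49-fold with a 95% interval of 1.84 to 6.63, and the edgeR adjusted p was 0.0386. The values rest on few reads, 16 to 41 counts in WT and 45 to 115 in KO livers. Left out in turn, WT3 and KO3 kept the call (adjusted p = 0.0396 and 0.00423 in edgeR), and without any of the other 4 livers it was lost, with an adjusted p of up to 0.143. The gene lies within an intron region of *Syn1* on the opposite strand, with which it shares 0 exon bases.

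*Timp2* (chromosome 11, 118301069 to 118355740, minus strand) encodes the inhibitor that, bound to MMP14 on the cell surface, holds pro-MMP2 for its activation. WT livers had 13.2, 15.1 and 15.3 CPM and KO livers 20.9, 17.4 and 17.6 CPM, again without overlap. The difference was small beside that of *Timp1*, at 0.36 ± 0.12 (SE) on the log2 scale, and was not called (edgeR adjusted p = 0.0840). *Timp3* (chromosome 10, 86300372 to 86349506, plus strand) encodes the inhibitor that stays bound to the matrix and also blocks ADAM proteases. It had 50.0, 41.1 and 54.4 CPM in WT and 59.8, 53.8 and 61.2 CPM in KO livers, and KO2 lay below WT3. Its log2 fold change of 0.27 ± 0.12 (SE) was not called (edgeR adjusted p = 0.168). It shares 21.3% of its exon bases with *Syn3* on the opposite strand, a gene with 7 to 27 counts a liver, against 858 to 1409 for *Timp3*.

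Among the secreted proteases, *Mmp13* (chromosome 9, 7272514 to 7283331, plus strand), the main interstitial collagenase of rodents, had the largest fold change of the 10 genes. The WT livers had 1.37, 1.53 and 2.56 CPM and the KO livers 11.8, 6.40 and 4.29 CPM. The lowest KO liver was 1.68-fold above the highest WT liver, and the KO livers themselves spread 2.76-fold. The log2 fold change was 2.03 ± 0.41 (SE), or 4.08-fold with a 95% interval of 2.11 to 7.90 (edgeR adjusted p = 0.0326). The call held without WT3 and without KO3 (edgeR adjusted p = 0.0415 and 0.00428), and was lost without any other liver, with an adjusted p of up to 0.132.

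*Mmp12* (chromosome 9, 7344381 to 7369499, plus strand) encodes macrophage metalloelastase, which cuts elastin. It had 9.95, 12.7 and 26.7 CPM in the WT livers and 60.7, 49.2 and 25.2 CPM in the KO livers. WT1, WT2, KO1 and KO2 were far apart, while WT3 and KO3 were level, so the groups overlapped. The log2 fold change was 1.45 ± 0.42 (SE), 2.73-fold with a 95% interval of 1.39 to 5.35, and it was not called (edgeR adjusted p = 0.0668). The gene was called without WT3 (log2 fold change 1.99, edgeR adjusted p = 0.0354), without KO3 (1.71, 0.0127) and with no filter on low counts (1.43, 0.00674). With the mitochondrial type as a term its log2 fold change was 0.76, the largest drop among the 10 genes.

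*Mmp2* (chromosome 8, 92827291 to 92853420, plus strand), or gelatinase A, which cuts denatured collagen and basement membrane collagen, was the most even of the called genes. WT livers had 3.02, 3.64 and 3.39 CPM and KO livers 5.26, 5.20 and 5.47 CPM. The KO livers lay within 1.05-fold of each other, and the lowest stood 1.43-fold above the highest WT liver. The log2 fold change was 0.66 ± 0.15 (SE), with an edgeR adjusted p of 0.0395, and it was 0.65 with the mitochondrial type as a term (edgeR adjusted p = 0.436). Without KO3 the call held (edgeR adjusted p = 0.0276), and without each of the other 5 livers it was lost, with an adjusted p of up to 0.143, while the log2 fold change stayed between 0.59 and 0.72. *Mmp9* (chromosome 2, 164940780 to 164955850, plus strand), or gelatinase B, had the fewest reads of the 10 genes, 10 to 35 counts a liver. It stood at 0.458, 0.479 and 0.670 CPM in WT and 1.49, 1.46 and 0.802 CPM in KO livers, without overlap, and the log2 fold change of 1.21 ± 0.34 (SE) was not called (edgeR adjusted p = 0.0646). Without KO3 it was called, at a log2 fold change of 1.42 and an edgeR adjusted p of 0.0151.

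*Mmp19* (chromosome 10, 128790910 to 128800824, plus strand), a secreted protease that cuts basement membrane proteins, was the one gene of the 10 with a fold change below 0. WT livers had 64.5, 70.1 and 60.2 CPM and KO livers 56.5, 55.8 and 61.6 CPM. KO3 lay above WT3, and the log2 fold change of -0.16 ± 0.09 (SE) was not called (edgeR adjusted p = 0.247). Scaled by library totals alone, which moved the median of all genes by 0.14, it was -0.03. *Mmp19* shares 22.3% of its exon bases with *Tmem198b* on the opposite strand, a gene with 149 to 212 counts a liver against 1299 to 1528 for *Mmp19*. The counting is not stated to use strand.

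The membrane-type proteases sit on the cell surface and cut collagen around the cell. *Mmp14* (chromosome 14, 54431612 to 54445364, plus strand), which also activates pro-MMP2, had 22.8, 20.6 and 25.0 CPM in WT and 41.1, 43.1 and 28.3 CPM in KO livers. KO1 and KO2 were clearly apart from the WT livers and KO3 was 1.13-fold above the highest of them. The log2 fold change was 0.72 ± 0.16 (SE), with an edgeR adjusted p of 0.0407; the call held only without KO3 (adjusted p = 0.00214) when single livers were left out, and the highest value otherwise was 0.143. *Mmp15* (chromosome 8, 95352268 to 95375080, plus strand) had 45.9, 44.8 and 39.9 CPM in WT and 50.1, 51.2 and 55.8 CPM in KO livers. Unlike *Mmp14*, its lowest WT liver was WT3 and its highest KO liver KO3. The log2 fold change of 0.27 ± 0.09 (SE) was not called (edgeR adjusted p = 0.0943), and the groups did not overlap.

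An exact two-sided permutation test on the log2 CPM gave p = 0.1 for the 7 genes without overlap, the smallest value that 3 livers against 3 allow, and p = 0.2 for *Timp3*, *Mmp12* and *Mmp19*.

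**Figure D2:**
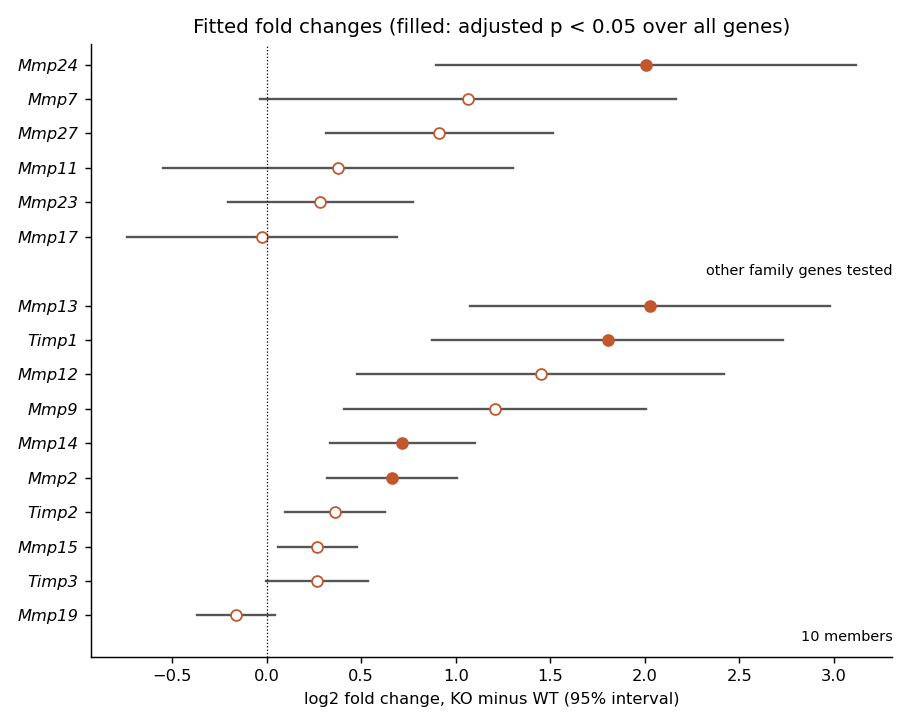
Fitted log2 fold change, KO minus WT (x axis), with its 95% interval, for the 10 genes and for 6 other genes of both families with enough counts. Filled points passed an adjusted p of 0.05 over all genes tested, which *Mmp13* (2.03), *Timp1* (1.80), *Mmp14* (0.72), *Mmp2* (0.66) and *Mmp24* (2.01) did, and only *Mmp19* and *Mmp17* have a point below 0.

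In several of the genes WT3 and KO3 were the livers of the 2 groups nearest to each other. WT3 was the highest WT liver for 7 of the 10 genes (33.0% of all genes tested), KO3 the lowest KO liver for 5 (41.0%), and both held for the same 5, *Timp1*, *Mmp9*, *Mmp12*, *Mmp13* and *Mmp14* (18.0%). In *Mmp2*, *Mmp15*, *Timp3* and *Mmp19* KO3 was the highest KO liver.

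Levels of different genes were compared per length, as CPM divided by the kilobases of annotated exon. In WT livers the order of the means was *Mmp19* (18.4 ± 1.40 CPM per kb, SD, n = 3), *Mmp15* (8.07 ± 0.59), *Timp3* (5.95 ± 0.83), *Mmp14* (3.82 ± 0.37), *Timp2* (3.73 ± 0.28), *Mmp12* (2.27 ± 1.24), *Timp1* (1.22 ± 0.52), *Mmp2* (0.995 ± 0.092), *Mmp13* (0.682 ± 0.241) and *Mmp9* (0.151 ± 0.033). *Mmp19*, *Mmp15* and *Timp3* each stood clear of the next gene in every WT liver, as *Mmp13* did of *Mmp9*, and the ranges of all neighbours from *Mmp14* to *Mmp13* overlapped. In KO livers *Mmp19* (16.4 ± 0.90) and *Mmp15* (9.71 ± 0.56) kept the top of the order and stood clear of the next gene. *Timp3* (7.16 ± 0.48), *Mmp14* (6.29 ± 1.35), *Mmp12* (6.22 ± 2.50), *Timp2* (4.79 ± 0.50), *Timp1* (4.32 ± 1.69), *Mmp13* (2.81 ± 1.46) and *Mmp2* (1.58 ± 0.04) followed, each overlapping the next, and *Mmp9* (0.353 ± 0.110) was again last and clear of *Mmp2*. The middle of the order depends on the length used. With the principal transcript in place of all annotated exons, *Mmp15* had rank 4 in WT and rank 5 in KO livers, since that transcript holds a smaller part of the annotated exon bases of *Timp3*, *Mmp14* and *Mmp12*, and *Mmp19* stayed first in both groups.

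Summed per length, the 3 inhibitors stood at 10.5, 9.78 and 12.4 CPM per kb in the WT livers and 18.2, 16.2 and 14.4 in the KO livers, a ratio of means of 1.49. The 7 proteases stood at 33.5, 35.1 and 34.5 CPM per kb in WT and 47.0, 43.7 and 39.5 in KO livers, a ratio of 1.26, and neither sum overlapped between the groups. Without *Mmp19* and *Mmp15*, the 2 most abundant proteases by this length, the protease sum was 7.92 ± 1.83 CPM per kb in WT and 17.3 ± 5.11 in KO livers (SD, n = 3), a ratio of 2.18. These 2 also had the lowest log2 fold changes of the 7 proteases (-0.16 and 0.27), so leaving them out raises the ratio. By the principal transcript *Mmp14* (8.78) stood above *Mmp15* (8.48) in WT livers, and this ratio was not computed with that length. *Mmp19* took 53.5 ± 3.62% of the protease sum in WT and 38.1 ± 5.36% in KO livers (SD, n = 3), and *Timp1* took 10.9 ± 3.23% of the inhibitor sum in WT and 26.1 ± 8.26% in KO livers. Both shares were without overlap, and with the principal transcript lengths they were 44.7% and 29.3% for *Mmp19* and 7.79% and 19.7% for *Timp1*, also without overlap. The ratio of the inhibitor sum to the protease sum was 0.317 ± 0.041 in WT and 0.375 ± 0.011 in KO livers (SD, n = 3), without overlap. With the principal transcript lengths it was 0.359 ± 0.036 and 0.369 ± 0.027, and the groups overlapped, so the data do not settle whether inhibitors or proteases gained more per length.

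**Figure D3:**
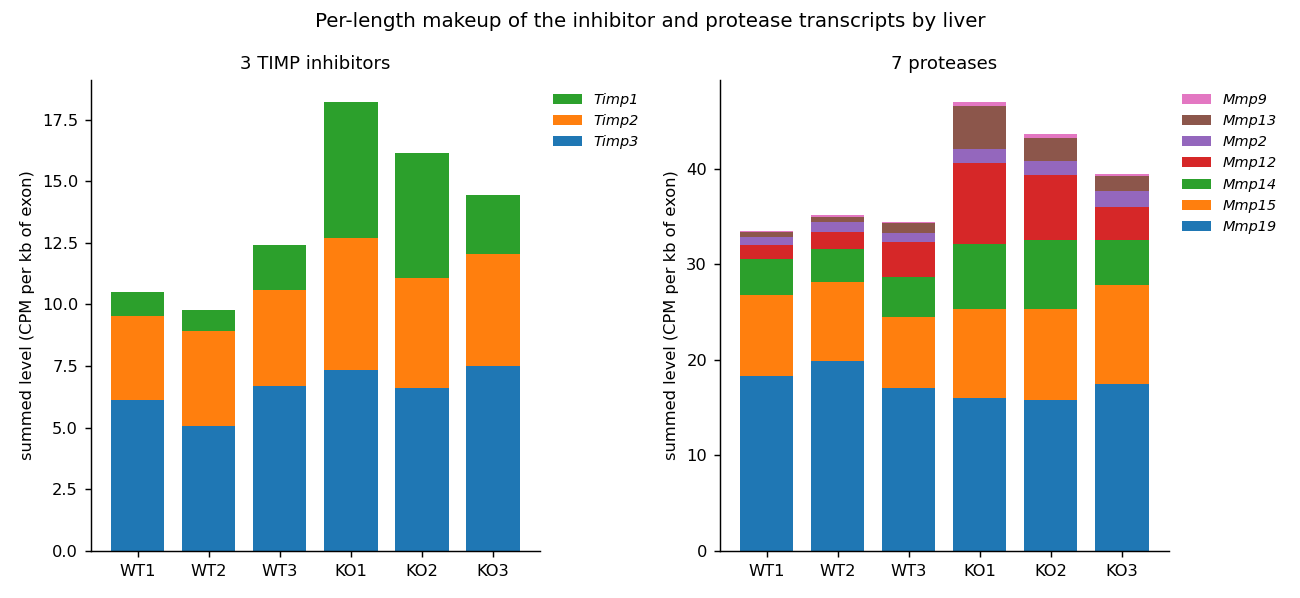
Stacked per-length levels (CPM per kb of annotated exon, y axis) of the 3 inhibitors (left) and 7 proteases (right) in each of the 6 livers, 1 colour a gene. The *Timp1* and *Mmp12* blocks are tallest in KO1 and KO2, and the *Mmp19* block makes up the largest part of every protease bar.

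*Mmp13* and *Mmp12* lie side by side in a cluster of MMP genes on chromosome 9. Of its genes, 7 were in the table, within 427 kb: *Mmp13*, *Mmp12*, *Mmp3*, *Mmp10*, *Mmp8*, *Mmp27* and *Mmp7*, in this order. *Mmp1a*, *Mmp1b* and *Mmp20* had no row under these names, so there were no counts of them to read. *Mmp27* had 1.51, 1.39 and 2.56 CPM in WT and 3.23, 3.44 and 3.73 CPM in KO livers, without overlap (log2 fold change 0.91, edgeR adjusted p = 0.0640, not called). *Mmp7*, or matrilysin, had 0.871, 0.336 and 0.749 CPM in WT and 1.95, 1.50 and 0.661 CPM in KO livers (log2 fold change 1.07, edgeR adjusted p = 0.171, not called). *Mmp8*, the neutrophil collagenase, had 5, 0 and 8 counts in WT and 23, 27 and 5 counts in KO livers and was too low to be tested. *Mmp3*, or stromelysin, and *Mmp10* were at or below 6 counts in every liver, so a difference in them was not detectable at this depth. Within the cluster, then, *Mmp13* was the only gene called.

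**Figure D4:**
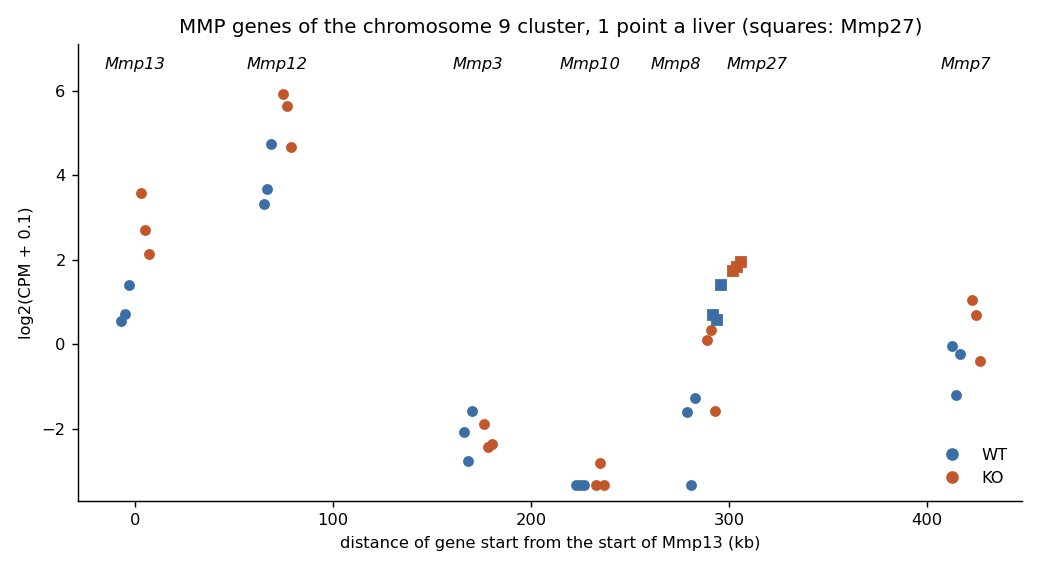
Levels on a log2 scale, log2(CPM + 0.1), of the 7 genes of the chromosome 9 cluster (y axis) against the distance of their start from that of *Mmp13* in kb (x axis), 1 point a liver, with WT in blue, KO in orange and squares for *Mmp27*. *Mmp13* and *Mmp12*, the leftmost pair, hold the highest points, and *Mmp3* and *Mmp10* lie near the bottom in both groups.

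The sequences before the starts of the genes of this cluster, from RefSeq (GRCm38.p6), are shown because they share a short motif. The table had windows for 7 of the 10 genes, *Timp1*, *Timp2*, *Timp3*, *Mmp12*, *Mmp13*, *Mmp14* and *Mmp15*, and the other 3 were not searched. The 250 bases before each start were searched on both strands for TGANTCA (AP-1, the motif bound by FOS and JUN dimers, which reads the same on either strand), AGGAAG (PEA3, bound by ETS factors) and the TATA box, spelled TATAAA. Of all 32851 windows in the table, 6.75% held the AP-1 motif, 29.5% held the PEA3 motif and 12.4% held the TATA box. Counted by gene, 7.82% of the 27025 genes with a window held the AP-1 motif. Of the 10 genes of the chromosome 9 cluster, 8 held it in a window: *Mmp13*, *Mmp12*, *Mmp1b*, *Mmp3*, *Mmp1a*, *Mmp10*, *Mmp20* and *Mmp7*. Of the 12 genes of both families elsewhere in the genome that had a window none did, and neither did *Mmp8* or *Mmp27* within the cluster. *Mmp2*, *Mmp9*, *Mmp16*, *Mmp17* and *Mmp19* had no window and were not searched. The capitals below mark that motif in the 250 bases before the start of *Mmp13* (chr9:7272264-7272513, plus strand, motif beginning 35 bases before the start) and of the second of the 2 *Mmp12* starts (chr9:7347124-7347373, plus strand, 44 bases before the start), and in 41 bases of *Mmp3* (chr9:7445759-7445799, 46 bases before the start), *Mmp10* (chr9:7502262-7502302, 63 bases) and *Mmp7* (chr9:7692010-7692050, 63 bases), all on the plus strand.
Mmp13: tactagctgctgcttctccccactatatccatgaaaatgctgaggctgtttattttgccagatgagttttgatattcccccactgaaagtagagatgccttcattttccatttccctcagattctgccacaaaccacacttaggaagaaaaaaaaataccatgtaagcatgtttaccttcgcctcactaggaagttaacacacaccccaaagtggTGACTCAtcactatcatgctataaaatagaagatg
Mmp12: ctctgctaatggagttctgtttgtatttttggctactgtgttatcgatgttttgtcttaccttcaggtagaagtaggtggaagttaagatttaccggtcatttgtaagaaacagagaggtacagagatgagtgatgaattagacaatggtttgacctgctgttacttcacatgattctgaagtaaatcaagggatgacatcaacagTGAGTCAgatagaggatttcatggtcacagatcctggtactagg
Mmp3: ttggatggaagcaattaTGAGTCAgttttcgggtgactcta
Mmp10: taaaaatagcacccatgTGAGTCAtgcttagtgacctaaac
Mmp7: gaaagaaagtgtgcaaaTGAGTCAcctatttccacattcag

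The second *Mmp12* start begins the principal transcript in the annotation, its window lies in an intron of the longer transcripts, and the window of the first start held no TGANTCA; the counts do not say which start the livers used. The motif was in windows of *Mmp13*, *Mmp12* and *Mmp7*, which had a log2 fold change above 1. Only *Mmp13* was called, and the groups overlapped in *Mmp12* and *Mmp7*. It was also in those of *Mmp3* and *Mmp10*, which had next to no reads in either group. *Mmp27*, without the motif, had a log2 fold change of 0.91 and no overlap. *Timp1*, *Mmp14* and *Mmp24*, which were called, held no such motif either. A link between the motif and the fold changes was not tested. TATAAA was in a window of *Mmp13*, *Mmp1b*, *Mmp3*, *Mmp1a*, *Mmp10*, *Mmp20* and *Mmp7*, and outside the cluster of *Mmp21*. *Mmp13* also held 2 AGGAAG, in small letters above, beginning 109 and 62 bases before its start. The first *Mmp12* window, *Mmp14* and *Timp3* held 1 each. *Timp1* held no TGANTCA, and 2 AGGAAG, in capitals below, beginning 175 and 99 bases before its start (chrX:20869916-20870165, plus strand).
Timp1: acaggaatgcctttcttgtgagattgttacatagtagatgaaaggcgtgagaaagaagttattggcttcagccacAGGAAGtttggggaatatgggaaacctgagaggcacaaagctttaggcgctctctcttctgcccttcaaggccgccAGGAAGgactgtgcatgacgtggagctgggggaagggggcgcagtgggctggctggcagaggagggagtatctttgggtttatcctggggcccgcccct

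A match of letters is a description and not a bound site, and these libraries hold no measure of binding.

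The other members of the families were mostly low. Of 17 further MMP and TIMP genes, 14 were in the table and 6 were tested: *Mmp7*, *Mmp11*, *Mmp17*, *Mmp23*, *Mmp24* and *Mmp27*. *Mmp24*, a membrane-type protease best known from neurons, was the only one called, with 0.0917, 0.144 and 0.315 CPM in WT and 0.679, 1.03 and 0.613 CPM in KO livers (log2 fold change 2.01 ± 0.48 (SE), edgeR adjusted p = 0.0429). Without WT1, WT2, KO1 or KO2 the call was lost (edgeR adjusted p from 0.125 to 0.156), and the log2 fold change was 2.67 without WT3 and 1.29 with the term for the mitochondrial type. The values rest on 2 to 8 counts in WT and 13 to 24 in KO livers, and 13.6% of its exon bases overlap *BC029722* on the opposite strand. *Mmp11* and *Mmp17* overlapped between the groups, and *Mmp23* did not (1.39 to 1.89 CPM in WT, 1.93 to 2.19 CPM in KO livers, log2 fold change 0.28). *Timp4*, the remaining inhibitor, had 1 count in WT3 and 0 in the other 5 livers.

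Genes that act on MMPs, are cut by them or are related to them were read from the same fit, as 5 lists. Each count from this fit is to be set against the 4.97% of all genes called higher and 4.14% called lower. Leaving out the 10 genes, 88 genes of these lists were tested, 23 were called higher and 3 lower. In the refits 88 to 91 were tested, and the share of all genes called higher moved as well. Without WT1 or KO1, 0 were called in either direction (0.0809% and 0.0543% of all genes higher). Without WT2, 2 were called higher and 1 lower, and without KO2, 2 higher and 0 lower (0.128% and 0.183% of all genes higher). With a replicate block 1 was called higher (0.117%), and without KO3 54 (15%). Calls were lost over the whole table in these refits, except without KO3, so the losses do not single out livers for the calls named next. Of 11 tested activators and membrane regulators, 1 was higher and 1 lower, and the median log2 fold change was 0.14. *Sparc*, a collagen-binding matricellular protein, was higher (69.0 to 76.2 CPM in WT, 110 to 119 in KO livers, log2 fold change 0.67, edgeR adjusted p = 0.0112). *Lrp2*, an endocytic receptor, was lower (0.575 to 0.871 CPM in WT, 0.172 to 0.340 in KO livers, log2 fold change -1.62, edgeR adjusted p = 0.0438). *Furin*, which cleaves the propeptide of membrane-type MMPs, had a log2 fold change of -0.10 and *Reck*, a membrane-anchored MMP inhibitor, of -0.61, and neither was called.

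Of 11 tested genes of the plasminogen system, 3 were called higher (4.97% of all genes) and 2 lower (4.14%), and the median log2 fold change was 0.77. *Plat*, tissue plasminogen activator, had 0.911 to 2.84 CPM in WT and 3.68 to 8.32 CPM in KO livers (log2 fold change 1.77, edgeR adjusted p = 0.0432). *Anxa2* and *S100a10*, whose proteins together bind plasminogen and its activator at the cell surface, had log2 fold changes of 1.58 and 0.91 and edgeR adjusted p-values of 0.0131 and 0.0294. The lower genes were *Klkb1*, plasma prekallikrein made by hepatocytes (-0.79), and *Serpine2*, an inhibitor of plasminogen activators (-1.12, edgeR adjusted p = 0.0342). *Plg*, plasminogen itself, had 1120 to 1571 CPM in WT and 882 to 968 CPM in KO livers and was not called (log2 fold change -0.52, edgeR adjusted p = 0.0516).

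The related ADAM and ADAMTS proteases gave a log2 fold change above 0 for all 19 genes tested (51.0% over all genes), with a median of 0.60. Of these, 3 were called higher (4.97% of all genes): *Adam19* (0.79), *Adamts9* (1.01) and *Adamts12* (1.20). Of 18 matrix proteins that MMPs are known to cut, 12 were called higher (4.97% of all genes) and none lower (4.14%), with a median log2 fold change of 0.88. The largest among those called were *Lamc1*, a laminin chain (1.18), and *Col1a1* and *Col1a2*, the chains of collagen I (1.15 and 1.00). *Fn1*, fibronectin, much of it made by hepatocytes, was at -0.09 and was not called. Of 37 tested genes of a senescence list that the study's authors compiled, 8 were called higher (4.97% of all genes) and none lower (4.14%). The median log2 fold change was 0.75. The list holds 5 of the 10 genes described here, of which *Mmp2*, *Mmp13* and *Mmp14* were among the 8, and *Cdkn1a*, *Plat* and *Ets2* (log2 fold changes 1.75, 1.77 and 1.39) led the other 5.

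In a bulk liver, fewer or more cells of a type and less or more RNA per cell cannot be told apart, so the marker lists of the liver's cell types are given beside the 10 genes. The counts called below are to be set against 4.97% of all genes called higher and 4.14% called lower. In lists this short, 1 call says little about a cell type. The hepatocyte markers marked the tissue as liver, led by *Alb* and *Cyp2e1*, and their summed level was 70171 to 77406 CPM in WT and 55700 to 58950 CPM in KO livers, with 3 of 11 called lower. Summed HSC markers were 456 to 500 CPM in WT and 574 to 626 CPM in KO livers, with 2 of 12 called higher (*Pdgfrb* and *Dcn*). Summed macrophage markers were 496 to 848 CPM in WT and 854 to 1099 CPM in KO livers, with 3 of 13 called higher (*Gpnmb*, *Trem2* and *Cd68*). WT3 (848 CPM) was nearly level with KO1 (864) and KO3 (854). By mean log2 CPM of these markers WT3 (5.52) stood above KO1 (5.51) and KO3 (5.45), so the groups overlapped. The log2 fold change was above 0 for 12 of the 13, and the lowest was -1.29. Summed neutrophil markers were 54.8 to 72.6 CPM in WT and 137 to 213 CPM in KO livers, nearly all of it *Lcn2*, which hepatocytes also make. Of these 12 neutrophil genes 5 were tested, *Lcn2* was the one called, and *Mpo* and *Ltf* were at 0 to 3 counts in every liver. Endothelial markers summed to 280 to 317 CPM in WT and 320 to 357 CPM in KO livers, with 1 of 10 called higher. Cholangiocyte markers summed to 29.3 to 33.3 CPM in WT and 34.7 to 64.5 CPM in KO livers, with 1 of 8 called higher. Of 4 tested mesothelial markers 1 was called higher, *Krt8*, which hepatocytes make, and the others were near 0. T cell markers summed to 5.18 to 6.78 CPM in WT and 4.13 to 8.58 CPM in KO livers, with 1 of 6 called lower. This was *Cd4*, the coreceptor of helper T cells, which some macrophages also carry (1.05 to 2.02 CPM in WT, 0.516 to 0.661 CPM in KO livers, log2 fold change -1.46, edgeR adjusted p = 0.0386). No list had all of its genes at 0. The part of these cell types in the MMP and TIMP values was not tested.

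The log2 CPM of each gene was also set against the mean log2 CPM of the markers of the same liver, and the values that follow are KO minus WT differences of that distance, as descriptions. *Mmp13* and *Timp1* stood higher in KO livers, without overlap, relative to each of the 5 lists used (hepatocyte, HSC, macrophage, neutrophil and endothelial markers): *Mmp13* by 1.23 relative to the 13 macrophage markers and *Timp1* by 1.43 relative to the 12 HSC markers. *Mmp2* stood 0.36 higher relative to the HSC markers, without overlap, and differed by -0.03 relative to the macrophage markers, with overlap. *Mmp12* stood 0.81 higher relative to the macrophage markers, with overlap, since KO3 (-0.79) and WT3 (-0.78) were level. For *Mmp14* the difference was 0.40 relative to the HSC markers and 0.01 relative to the macrophage markers, both with overlap. *Mmp9* differed by 0.77 and 0.88 relative to the HSC and endothelial markers, without overlap, and by 0.01 relative to the 5 tested neutrophil markers, from which single livers lay -2.38 to -1.95 away. *Timp2*, *Timp3* and *Mmp15* overlapped between the groups relative to the HSC markers (0.06, -0.02 and -0.03) and the macrophage markers (-0.33, -0.41 and -0.42). *Mmp19* stood lower in KO livers relative to HSC (-0.46) and endothelial markers (-0.35), without overlap. Relative to the hepatocyte markers, 9 of the 10 genes stood higher in KO livers without overlap (0.72 to 2.37), and *Mmp19* by 0.29 with overlap. The mean log2 CPM of these markers was itself lower in KO livers (11.8, 11.5 and 11.6 in WT, 11.2, 11.3 and 11.2 in KO). A gene level between the groups would therefore also stand higher on this measure. The share of all genes that did so was not computed.

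Across the 6 livers, the genes whose centred log2 CPM lay nearest to a member were named by the root mean square difference. Nearest to *Timp1* were *Cxcl14*, *Pakap* (ENSMUSG00000038729) and *Il33*, at 0.16, 0.17 and 0.17, against a median of 1.00 over all other genes tested. Nearest to *Mmp12* were *Procr* (0.10), *Cxcl14* (0.14) and *Klf4* (0.16), with a median over all genes of 0.95. All of these have the pattern of *Mmp12*, with WT3 near KO3: *Cxcl14* stood at 2.38, 2.83 and 4.93 CPM in WT and 14.0, 12.2 and 5.28 CPM in KO livers. Nearest to *Mmp2* were *Ikbip*, *C1qtnf5* and *Dubr* (0.05, 0.05 and 0.06, median 0.39), and nearest to *Timp3* were *Meis2*, *Pxdn* and *Fhod1* (0.04, 0.06 and 0.06, median 0.29). With 6 livers these are descriptions of likeness and were not tested.

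**Figure D5:**
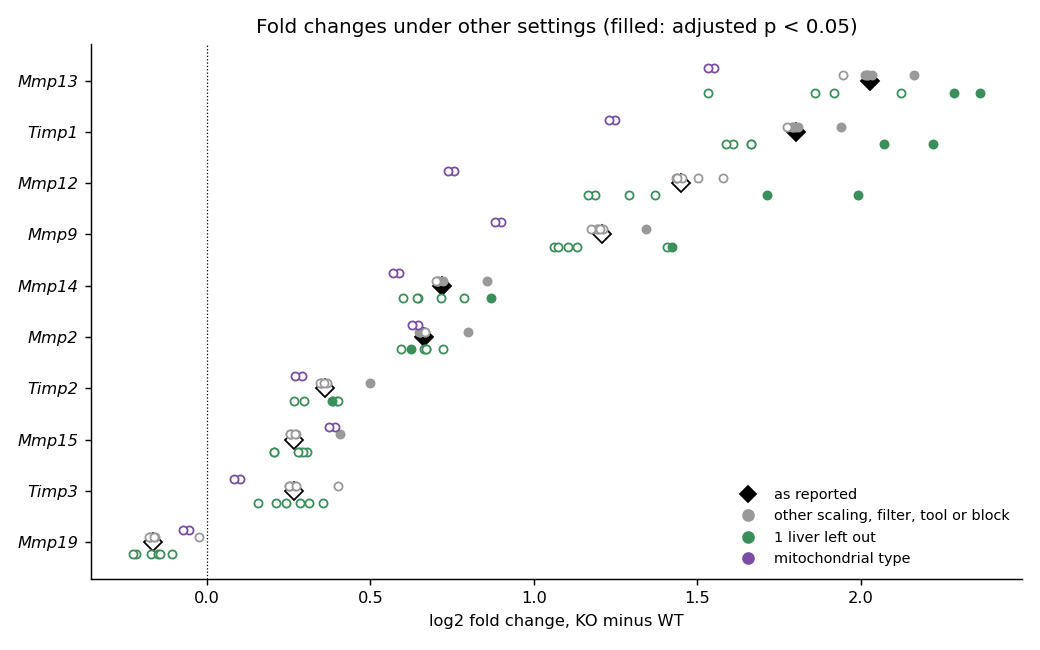
Log2 fold change, KO minus WT (x axis), of the 10 genes as reported (black diamonds), with other scaling, filters, DESeq2 or a replicate block (grey), with 1 liver left out (green) and with the mitochondrial type taken into account (purple). Filled symbols passed an adjusted p of 0.05. None of the 10 genes changes sign in the settings drawn, no purple point is filled, and *Mmp12* moves from 1.45 to 0.76 with the mitochondrial type as a term.

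Other ways of scaling and filtering moved the member count little, except scaling by library totals alone. RLE size factors called 4 of the 10 genes higher (4.77% of all genes tested), at least 10 counts in every liver 4 (5.6%), and no filter on low counts 5 (4.77%). DESeq2 called 4, where 4.75% of the 25399 genes with a p-value were called higher. Its own filter can leave some of these genes without an adjusted p, so that share may be too low. Library totals alone called 7 (9.98%), and this scaling also moved the share of higher calls among all calls from 54.6% to 78.9%.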

How the data were processed

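The authors trimmed paired-end reads of poly(A) liver libraries with cutadapt 2.3, mapped them to GRCm38 with STAR 2.7.8a and deposited estimated counts per gene from RSEM 1.3.3, not normalized and in whole numbers (tools and build per the labels). The annotation release and the use of strand are not given in the sources used here. A read that fits several genes is split among them by RSEM, which ties the values of near-identical genes together.

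The estimated counts were filtered with filterByExpr (10907 genes left out), scaled by TMM and compared between the genotype labels with edgeR 4.0.16 (glmQLFit, glmQLFTest) in R 4.3.3, using the 6 livers and no covariate. Benjamini-Hochberg adjustment ran over 14496 genes, with 0.05 as the threshold. The sources give 3 liver samples a group and number no animals, so p-values measure the spread between these samples. Within groups every pair of libraries differed by more than counting noise (chi-square per degree of freedom 9.12 to 38.9). The fit was tested on simulated counts. Positions, lengths and principal transcripts (APPRIS tags) came from GENCODE vM21, and promoter windows from RefSeq (GRCm38.p6).

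The members and lists were chosen with earlier results of these data known. Named were all 10 members, list genes that passed the threshold or led in level, genes nearest to *Timp1*, *Mmp12*, *Mmp2* and *Timp3*, and *Themis*. Values were already known when *Gm28438*, *mt-Nd3*, the cluster genes and other list genes below the threshold were named. The mitochondrial type and the principal transcript length were alternatives added after seeing the data. DESeq2 1.42.0 and matplotlib 3.10.9 were also used.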

Additional observations from a re-analysis of the deposited data

How the results depend on the processing

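All 10 members kept the sign of their fold change under every alternative run. With RLE size factors, at least 10 counts in every liver and DESeq2, 4 members were called, as in the main comparison, and with no low-count filter 5. With a fold of at least 2 as well, 2 members were called (269 genes higher and 162 lower in all). Scaled by library totals alone, 7 members were called higher, 2 other family genes and 40 genes of the 5 pathway lists, and over all genes 1447 higher and 387 lower, so the higher share of calls went from 54.6% to 78.9%; the median of all genes was then 0.147, and the summed protease ratio 1.39. Over all genes there were 1212 higher and 967 lower calls among 25403 genes with no filter. DESeq2 gave 1207 and 1072 among 25399 genes with a p-value, and the main comparison 721 and 600 among 14496. As shares called higher these were 4.77%, 4.75% and 4.97%. Of the other family genes, 2 of 14 were called with no filter and 2 of 14 with DESeq2, against 1 of 6. With at least 10 counts in every liver 0 of 4 were called, but that filter left out *Mmp24*, the one called in the main comparison. Pathway genes called higher were 43 and 40 of 94, and called lower 6 and 5, with no filter and with DESeq2. The main comparison had 23 and 3 of 88.

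The paper speaks of pairs of WT and KO livers, but the replicate numbers gave no sign of pairing. Same-numbered livers had correlations of 0.00028, -0.24 and -0.16 in their deviations from the group means. Different-numbered livers had 0.066 on average, a value tied to the former because the deviations within a group sum to 0. With the replicate block, 17 genes were called higher and 45 lower, of which 0 members, 0 other family genes, and 1 higher and 0 lower of the pathway lists; 8 members had an unadjusted p under 0.05, as without the block.

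In fits that set WT3 alone against the KO livers, few genes can pass: with the mitochondrial type as a term, 0 genes were called higher and 3 lower, and among the 4 livers of one type 0 and 9, with 0 members, 0 other family genes, and 0 pathway genes in either direction (edgeR). At an unadjusted p under 0.05, 4 and 3 members were then higher, 8 in the main comparison. Leaving out each liver gave 8 (without KO1) to 2228 (without KO3) genes higher and 12 to 2039 lower, 0 to 7 members higher, 0 to 3 other family genes, and 0 to 54 higher and 0 to 6 lower pathway genes. The members' median log2 fold change was 0.63 to 0.75 with a liver left out, 0.62 and 0.60 with the mitochondrial type as a term and among livers of one type, and 0.83 with library totals alone. With principal transcript lengths the protease ratio was 1.38 and the inhibitor-to-protease ratio of KO over WT 1.03, against 1.18.

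With 3 livers a group and 10 to 41 counts behind *Mmp9* and *Timp1* in WT livers, small differences in low members were not detectable.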
